A study of Mus musculus with 12 samples.

Results

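Thrsp and 8 genes that make, desaturate and elongate fatty acids or control their transcription were followed in the mouse cecum after cauterization. The 9 genes are Acly, Acaca, Fasn, Thrsp, Me1, Scd1, Elovl6, Srebf1 and Mlxipl, out of 36998 genes on the array, chosen by the low level of Thrsp at 12 h as the known pathway around it. Among 21636 genes well above background on every sham and 12 h array, the mean log2 level of Thrsp at 12 h differed from sham by -4.41, the second lowest difference. Car3 (-4.70), which belongs to the list of fat cell markers used below, was just ahead of it and Tex19.1 (-4.10) just behind. The choice rested on the 12 h difference from sham, so every value from the 12 h arrays is given as a description with no test. The sham mean of Thrsp entered that choice and is also the reference for its differences at 3 h and 72 h. The 12 h and sham arrays also enter the spread that limma pooled over all 12 arrays, so no p-value below is independent of the choice. All 9 genes were found, on 21 probes, of which 15 were well above background on all 12 arrays. That count includes the brightest probe of each gene, which stands for the gene below unless another is named.

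Single-colour microarrays measured mRNA in whole cecum tissue of C57BL/6 mice, labelled male, with 3 arrays in each of 4 groups. In the cauterized groups the cecum had been burned with bipolar forceps, an injury after which fibrous adhesions form, and tissue was taken 3 h, 12 h or, in the last group, 72 h later. The sham group had a sham operation with no cauterization, and the study's methods place its sampling right after surgery. The groups carry no transgene or test drug, and the study's surgery was done under pentobarbital anesthesia. Time since surgery differs between sham and each cauterized group, so it cannot be told apart from cauterization. The age of the mice is not given in the sources used here, and the samples hold every cell type of the gut wall together with any fat attached to it. Levels are log2 signals minus the 75th percentile of the same array, so a level of 0 equals that percentile. A gene is said to have risen or fallen where limma's adjusted p was below 0.05, and to be called where its fold change also exceeded 2.

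Fatty acid synthesis turns citrate from the mitochondria into palmitate in the cytosol. ATP citrate lyase (Acly) makes acetyl-CoA, acetyl-CoA carboxylase 1 (Acaca) turns it into malonyl-CoA, and fatty acid synthase (Fasn) joins these units with NADPH that malic enzyme (Me1) helps supply. Stearoyl-CoA desaturase (Scd1) and the elongase Elovl6 then modify the product, the transcription factors SREBP-1 (Srebf1) and ChREBP (Mlxipl) switch the genes on after feeding, and Thrsp, also called Spot 14, is a small thyroid hormone-responsive protein that raises the activity of the pathway in liver and fat. In the gut wall the enzymes are active in epithelium, and fat cells in the attached mesentery express the whole set strongly.

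Before the results, 3 facts of the series bear on them. The epithelial genes Cdx2, Vil1, Epcam and Muc2 were well above background on 12 of 12 arrays, as the labelled tissue has them. Against the labelled sex, Xist was well above background on 12 arrays while the Y-linked genes Ddx3y and Eif2s3y were above it on 0 and Uty on 1. A Kdm5d probe, also Y-linked, was above it on 12. All sham and 3 h arrays and 12 h replicates 1 and 2 lay on slide 1, and 12 h replicate 3 lay on slide 2 with all 72 h arrays, so only that 1 array separates slide from time in comparisons with 72 h. Between 60.2% and 65.2% of probes were well above background and 0 spots were saturated. Whole-tissue RNA cannot tell fewer cells of a type from less RNA per cell.

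Promoter windows show what the genes share in sequence outside the readout. RefSeq (GRCm38.p6) windows of 300 bases, from 250 before a transcription start to 50 after it, were listed for 8 of the genes in 12 windows, with several starts for Me1, Srebf1 and Mlxipl. On both strands, the CCAAT box of NF-Y was in 7 of the 12 windows, against 37.4% of all 32851 windows, and the GC box GGGCGG of Sp1 was in 5, against 35.7%. The SREBP element TCACNCCAC was in 1 window against 1.24% and the E-box CACGTG, read by ChREBP, USF and the clock factors, was in 1 against 7.15%. Those last matches both lay in Mlxipl, in different windows. The windows of Thrsp, whose 12 h level chose the genes, of Fasn, the other gene called at 72 h, and of Mlxipl are printed 5′ to 3′ on the gene's own strand, with every match to the 4 motifs in capitals. Thrsp lies at chr7:97417501-97417800 and Fasn at chr11:120824498-120824797, both on the minus strand, and the Mlxipl windows lie at chr5:135106641-135106940 (window A) and chr5:135089640-135089939 (window B) on the plus strand.
Thrsp: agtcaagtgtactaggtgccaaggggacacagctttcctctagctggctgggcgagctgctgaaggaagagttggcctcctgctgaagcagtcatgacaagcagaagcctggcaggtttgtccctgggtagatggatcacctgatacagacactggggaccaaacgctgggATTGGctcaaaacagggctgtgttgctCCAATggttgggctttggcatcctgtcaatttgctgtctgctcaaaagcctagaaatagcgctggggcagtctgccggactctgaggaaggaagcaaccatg
Fasn: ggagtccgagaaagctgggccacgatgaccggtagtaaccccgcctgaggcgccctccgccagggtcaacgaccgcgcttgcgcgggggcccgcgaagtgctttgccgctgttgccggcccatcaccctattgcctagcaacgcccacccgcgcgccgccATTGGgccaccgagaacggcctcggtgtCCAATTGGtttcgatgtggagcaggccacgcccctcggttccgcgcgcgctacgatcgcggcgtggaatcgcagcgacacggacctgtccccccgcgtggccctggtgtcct
Mlxipl window A: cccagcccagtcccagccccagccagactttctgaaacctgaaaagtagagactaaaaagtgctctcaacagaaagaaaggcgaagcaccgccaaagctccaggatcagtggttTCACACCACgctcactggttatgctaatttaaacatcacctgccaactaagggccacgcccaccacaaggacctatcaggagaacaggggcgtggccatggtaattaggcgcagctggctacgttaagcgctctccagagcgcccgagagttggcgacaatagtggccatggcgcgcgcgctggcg
Mlxipl window B: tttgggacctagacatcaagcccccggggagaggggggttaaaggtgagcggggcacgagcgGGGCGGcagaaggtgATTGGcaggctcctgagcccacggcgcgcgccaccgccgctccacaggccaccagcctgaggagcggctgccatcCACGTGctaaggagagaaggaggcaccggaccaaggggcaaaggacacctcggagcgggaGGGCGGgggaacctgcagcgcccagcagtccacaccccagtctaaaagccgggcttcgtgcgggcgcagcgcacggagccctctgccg
Both Thrsp and Fasn hold a CCAAT box on each strand at similar distances from the start, with the minus-strand match at -79 to -75 in Thrsp and at -90 to -86 in Fasn. Their plus-strand matches lie at -52 to -48 in Thrsp and at -62 to -58 in Fasn, where a further minus-strand match shares 2 bases with it. The SREBP element of Mlxipl lies at -136 to -128 in window A, and the E-box at -98 to -93 in window B. Windows of Acaca and Elovl6 held none of the 4 motifs, which says only that these letters are not in those windows.

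Thrsp had the widest range of the 9 genes. Its brighter probe (mm9 chr7:104561649-104561708) read 0.53, 1.61 and -0.39 in the sham arrays and -3.17, -0.88 and -3.20 at 3 h. At 12 h the levels were -4.29, -3.12 and -4.08, and at 72 h they were -0.57, -2.35 and -2.61. Every array after cauterization thus lay below every sham array, the 12 h arrays lay below all 72 h arrays, and the 3 h arrays overlapped both. Thrsp fell by 3.00 on the log2 scale at 3 h (7.97-fold, SE 0.77, adjusted p = 0.0222) and by 2.43 at 72 h (5.38-fold, SE 0.77, adjusted p = 0.0496). Both falls are measured from the sham mean that entered the choice, so neither is separate support for it. At 12 h the mean was 21.3-fold below sham, a description. Within slide 1 the 12 h mean differed from sham by -4.29, and within slide 2 the 72 h mean lay 2.24 above the 12 h array. The 72 h and 3 h groups overlapped, and their difference of 0.57 did not pass the test (SE 0.77, adjusted p = 0.588).

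The other Thrsp probe (mm9 chr7:104565562-104565621) was dimmer and was well above background on 10 of 12 arrays, missing 1 of the 3 h arrays and 1 of the 12 h arrays. It read -0.97, 0.22 and -1.83 in sham, -4.59, -2.31 and -5.14 at 3 h, -6.21, -4.17 and -4.53 at 12 h. The 72 h arrays read -1.87, -3.39 and -3.85. Its order of arrays within the 3 h group matched that of the brighter probe in placing replicate 2 on top. It fell by 3.15 at 3 h (adjusted p = 0.0294), and the 72 h difference of -2.18 did not pass (adjusted p = 0.107). The 72 h call of Thrsp sat at the threshold, was lost in 15 of 24 alternative settings, and had an adjusted p of 0.438 with the slide as a block. Leaving out sham replicate 1 or 2, or 3 h replicate 1 or 3, also ended the 3 h call, with adjusted p from 0.0647 to 0.0828.

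**Figure D1:**
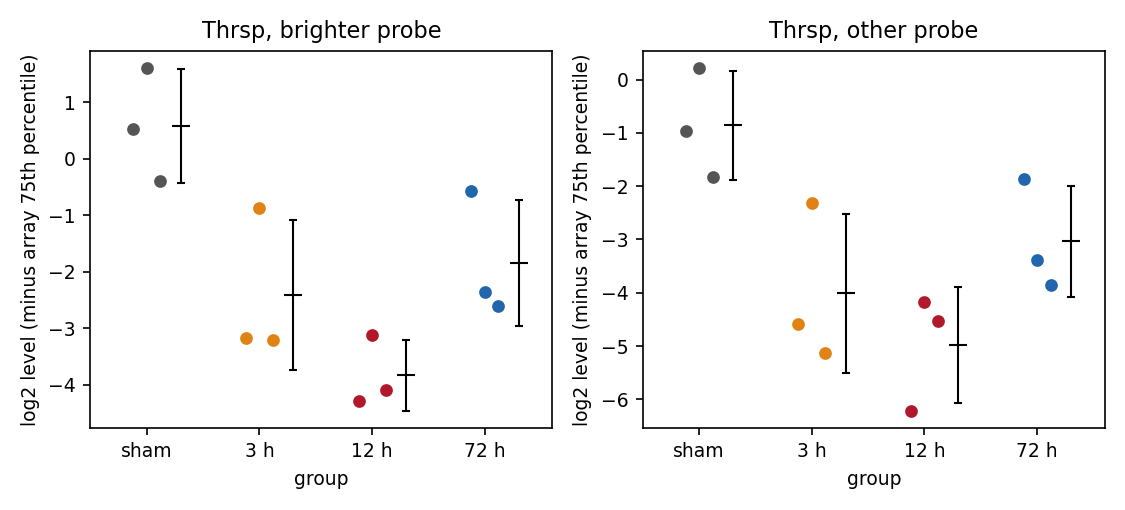
Level of Thrsp (log2 signal minus the array's 75th percentile) on each of 12 arrays, brighter probe on the left and dimmer probe on the right; points are arrays in replicate order from left to right, bars the mean and SD of 3 arrays. On the brighter probe every array after cauterization lies below the lowest sham array at -0.39.

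Levels of fat cell markers are given beside those of Thrsp. Their mean level over 22 genes, 15 of them above background on all 12 arrays, each relative to its own sham mean, ran from -0.40 to 0.41 in sham, from -2.09 to -0.76 at 3 h, from -2.25 to -1.15 at 12 h and from -2.06 to 1.17 at 72 h. Adiponectin (Adipoq), made almost only by fat cells, read -0.01, 0.83 and -0.72 in sham, then -6.78, -1.75 and -6.99 at 3 h, -6.88, -2.18 and -7.06 at 12 h. By 72 h the levels were 3.99, 2.61 and -7.42. Adipoq and Cfd (adipsin) were thus well above background on 3 of 3 sham arrays, on replicate 2 alone at 3 h and at 12 h, and on replicates 1 and 2 at 72 h. Plin1, the coat protein of fat cell lipid droplets, was above background on 3, 1, 0 and 2 arrays of those groups. The 3 h differences of Adipoq, Cfd and Plin1 did not pass (adjusted p = 0.199, 0.183 and 0.132).

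The arrays with the highest Thrsp in the 3 cauterized groups, in order of time, were replicates 2, 2 and 1, which also had the highest fat cell level of their group. In sham, Thrsp read 1.61, 0.53 and -0.39 on replicates 2, 1 and 3, and their fat cell levels were 0.41, -0.01 and -0.40. At 72 h, replicate 1 had fat cell markers 1.17 above the sham mean and Thrsp at -0.57, below the lowest sham array. Adipoq was well above background on replicate 2 of that group and not on replicate 3, while their Thrsp levels differed by 0.26. The share of the fat cell markers in the fall of Thrsp was not tested. Of the 22 markers, 4 were called lower at 3 h and 0 higher, beside 4.31% and 4.28% of genes above background on all arrays. That set holds only 15 of the 22 markers, and not Trarg1 or Retn, so the counts and the shares here come from unlike sets. Among the 4 called lower were the beta-3 adrenergic receptor Adrb3 (-3.56), the activin receptor Acvr1c (-1.80) and Trarg1, which was not well above background on any 3 h array and was at least 1.74-fold lower. At 72 h against 3 h, 6 were called higher, beside 7.28%, among them Retn (4.56, above background on 2 of 3 arrays at 3 h), Adrb3 (3.37) and Trarg1 (at least 4.10-fold), and 1 lower, Cidea (-2.09), beside 5.93%. Each of these calls was lost with the slide as a block (adjusted p = 0.0905 for Adrb3 and Cidea). Cidea and Slc2a4, the insulin-regulated glucose transporter, were the 2 called lower at 72 h against sham, beside 3.99%, and Cidea was not called with the slide as a block (adjusted p = 0.192). Cidec, another droplet protein, and the leptin probe Lep were above background on all 12 arrays and differed from sham by -0.87 (adjusted p = 0.451) and 0.06 (adjusted p = 0.760) at 3 h. Ucp1, a marker of brown fat, was above background on 0 arrays.

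**Figure D2:**
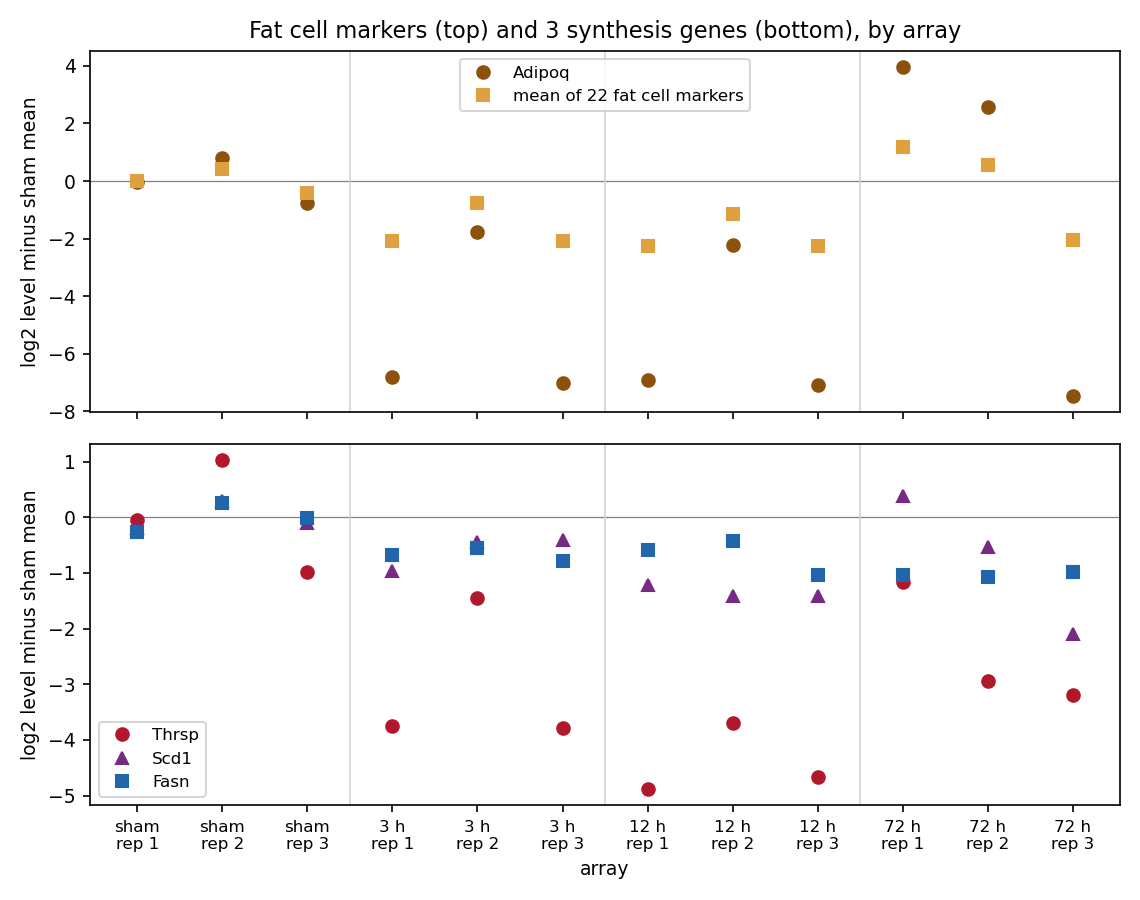
Log2 level on each of 12 arrays minus the gene's sham mean: Adipoq and the mean of 22 fat cell markers (top), Thrsp, Scd1 and Fasn (bottom); each point is 1 array. Adipoq was not well above background on 5 of the 9 arrays after cauterization, 72 h replicate 3 among them. The 3 Fasn points at 72 h lie together.

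Among the core enzymes, Fasn and Acaca fell at both tested times and Acly fell at 3 h. Fasn read 5.69, 6.21 and 5.94 in sham, 5.26, 5.40 and 5.17 at 3 h, 5.37, 5.52 and 4.92 at 12 h. On the 72 h arrays it read 4.91, 4.88 and 4.97. Every 3 h, 12 h and 72 h array was below every sham array. The 72 h arrays spanned 0.09, and the fat cell level of the same arrays spanned 3.23. The part of fat cells in the Fasn values was not tested. The fall was 0.67 at 3 h (1.59-fold, SE 0.17, adjusted p = 0.0240) and 1.03 at 72 h (2.04-fold, SE 0.17, adjusted p = 0.00299), just past the fold limit of the call. With the slide as a block the 72 h difference was -0.51 (adjusted p = 0.299), and the single 12 h array on the 72 h slide read 4.92, level with the 72 h mean of 4.92. The mean of the other 12 h arrays, on slide 1, differed from sham by -0.51.

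Acaca, which makes the malonyl-CoA that Fasn uses, read 2.83, 3.21 and 2.99 in sham, 2.14, 2.18 and 2.03 at 3 h, 2.20, 2.35 and 1.95 at 12 h. The 72 h arrays read 2.58, 2.39 and 2.42. The 3 groups after cauterization all lay below sham, and the 72 h arrays lay above all 3 h arrays. Acaca fell by 0.89 at 3 h (1.85-fold, SE 0.14, adjusted p = 0.00192), a fall that passed in 24 of 24 alternatives, and by 0.54 at 72 h (SE 0.14, adjusted p = 0.0199), a fall that did not pass with the slide as a block (-0.22, adjusted p = 0.606). The difference of 0.35 between 72 h and 3 h had an adjusted p of 0.0705. Of its 7 probes, the other 2 that were above background on all arrays fell by 0.80 and 1.02 at 3 h, the latter past the call (adjusted p = 0.00364), and the 4 dimmer ones were above background on 2 to 6 arrays. Its relative Acacb, the carboxylase that restrains fatty acid oxidation at the mitochondrion, differed from sham by -0.32 at 3 h (adjusted p = 0.333) and fell by 1.07 at 72 h (adjusted p = 0.00823, and 0.579 with the slide as a block).

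Acly, the entry point of citrate carbon, read 4.71, 5.07 and 4.95 in sham and 4.53, 4.54 and 4.43 at 3 h. At 12 h the levels were 4.32, 4.49 and 4.23, and the 72 h arrays read 4.58, 4.58 and 4.59. No array after cauterization reached the lowest sham array. The fall of 0.41 at 3 h passed (SE 0.12, adjusted p = 0.0334) in 17 of 24 alternatives, and the 72 h difference of -0.33 did not (SE 0.12, adjusted p = 0.0753). Its dimmer probe differed by -0.36 at 3 h (adjusted p = 0.0629).

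Malic enzyme passed the test at 72 h and not at 3 h. Me1 read 2.86, 3.20 and 2.71 in sham, 3.00, 3.26 and 2.44 at 3 h, 2.38, 2.50 and 2.28 at 12 h. By 72 h the levels were 2.29, 2.19 and 2.32. The 3 h arrays overlapped sham, and the 72 h arrays lay below all sham and all 3 h arrays. Me1 differed from sham by -0.02 at 3 h (SE 0.20, adjusted p = 0.948), fell by 0.66 at 72 h (SE 0.20, adjusted p = 0.0427) and differed by -0.64 between 72 h and 3 h (adjusted p = 0.0342). Its other probe gave falls of 0.78 and 0.81 in those comparisons (adjusted p = 0.0441 and 0.0280). With the slide as a block the 72 h difference from sham was -0.50 (adjusted p = 0.464). Leaving out any array other than sham replicate 3 or 3 h replicate 2 or 3 moved the 72 h adjusted p of the brighter probe above 0.05, to between 0.0528 and 0.145. A list drawn up around NADPH supply held 8 other genes and was not limited to enzymes that make NADPH themselves. None of them was called at 3 h (0 with unadjusted limma p below 0.05). At 72 h 1 was called lower, beside 3.99% of genes above background on every array. It was the mitochondrial malic enzyme Me2 (-1.44, adjusted p = 0.000103), and any effect on NADPH was not tested.

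Neither the desaturase nor the elongase passed the test against sham. Scd1, which puts the first double bond into saturated fatty acids, read 1.38, 1.87 and 1.48 in sham, 0.61, 1.14 and 1.16 at 3 h, 0.35, 0.17 and 0.17 at 12 h. On the 72 h arrays it read 1.96, 1.04 and -0.52. All 3 h and 12 h arrays lay below sham, whereas the 72 h arrays ran from above the highest sham array to the lowest value of the 12. Neither difference passed, -0.61 at 3 h (SE 0.49, adjusted p = 0.400) and -0.75 at 72 h (SE 0.49, adjusted p = 0.324). The order of the 72 h replicates in Scd1 was that of their fat cell level, 1.17, 0.58 and -2.06, and the part of those cells was not tested. At 12 h the mean of Scd1 was 2.54-fold below sham, a description.

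Elovl6, which extends palmitate to stearate, was the only gene of the 9 whose 3 h arrays all lay above sham. It read 2.81, 2.75 and 2.58 in sham, 2.94, 3.10 and 3.08 at 3 h, 2.77, 2.73 and 2.61 at 12 h. The 72 h arrays read 2.19, 2.53 and 2.62. Neither the 3 h difference of 0.33 (SE 0.13, adjusted p = 0.107) nor the 72 h difference of -0.26 (SE 0.13, adjusted p = 0.195) passed. All 72 h arrays lay below all 3 h arrays, and the 72 h minus 3 h difference of -0.60 did pass (SE 0.13, adjusted p = 0.00709).

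Of the Scd1 relatives, Scd2 fell by 1.32 at 3 h (adjusted p = 0.00292) and stood 1.15 higher at 72 h than at 3 h (adjusted p = 0.00371), a rise that did not pass with the slide as a block (adjusted p = 0.0998). Scd3 differed from sham by -0.50 at 3 h (adjusted p = 0.0611) and fell by 0.53 at 72 h (adjusted p = 0.0492, and 0.144 with the slide as a block). Scd4 differed by -0.08 and 0.33 (adjusted p = 0.698 and 0.0891).

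Both transcription factors fell at 3 h, and neither difference from sham passed at 72 h. Srebf1, which encodes SREBP-1, read 3.47, 3.72 and 3.67 in sham, 3.26, 3.17 and 3.11 at 3 h, 3.33, 3.48 and 3.37 at 12 h. By 72 h the levels were 3.56, 3.68 and 3.62. Its 3 h arrays lay below all other arrays and its 72 h arrays overlapped sham. The fall at 3 h was 0.44 (SE 0.10, adjusted p = 0.0163), the 72 h difference 0.00 (SE 0.10, adjusted p = 0.990), and the rise from 3 h to 72 h was 0.44 (adjusted p = 0.0105). With the slide as a block that rise was 0.48 with an adjusted p of 0.144.

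Mlxipl, which encodes the glucose-sensing factor ChREBP, read 1.96, 2.18 and 2.36 in sham, 1.55, 1.23 and 1.20 at 3 h, 1.04, 1.35 and 1.59 at 12 h. On the 72 h arrays it read 2.15, 2.10 and 1.67. The 3 h and 12 h arrays lay below sham, and the 72 h arrays overlapped it. It fell by 0.84 at 3 h (1.79-fold, SE 0.19, adjusted p = 0.0127), in 24 of 24 alternatives. Its other probes, also above background on all 12 arrays, differed by -0.65 (adjusted p = 0.0191) and -0.45 (adjusted p = 0.0796) at 3 h. On the brightest probe Mlxipl differed by -0.19 at 72 h (SE 0.19, adjusted p = 0.518). That difference was -0.60 with the slide as a block (adjusted p = 0.319). From 3 h to 72 h Mlxipl rose by 0.64 (adjusted p = 0.0276). The rise did not pass on its other probes, with 0.33 (adjusted p = 0.132) and 0.17 (adjusted p = 0.432), nor with the slide as a block (0.24, adjusted p = 0.675). Its binding partner Mlx differed by 0.45 at 3 h and -0.49 at 72 h (adjusted p = 0.106 and 0.0793), the SREBP-2 gene Srebf2 by 0.04 and -0.16 (adjusted p = 0.831 and 0.332), and the Thrsp relative Mid1ip1 by 0.24 and -0.20 (adjusted p = 0.368 and 0.500).

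**Figure D3:**
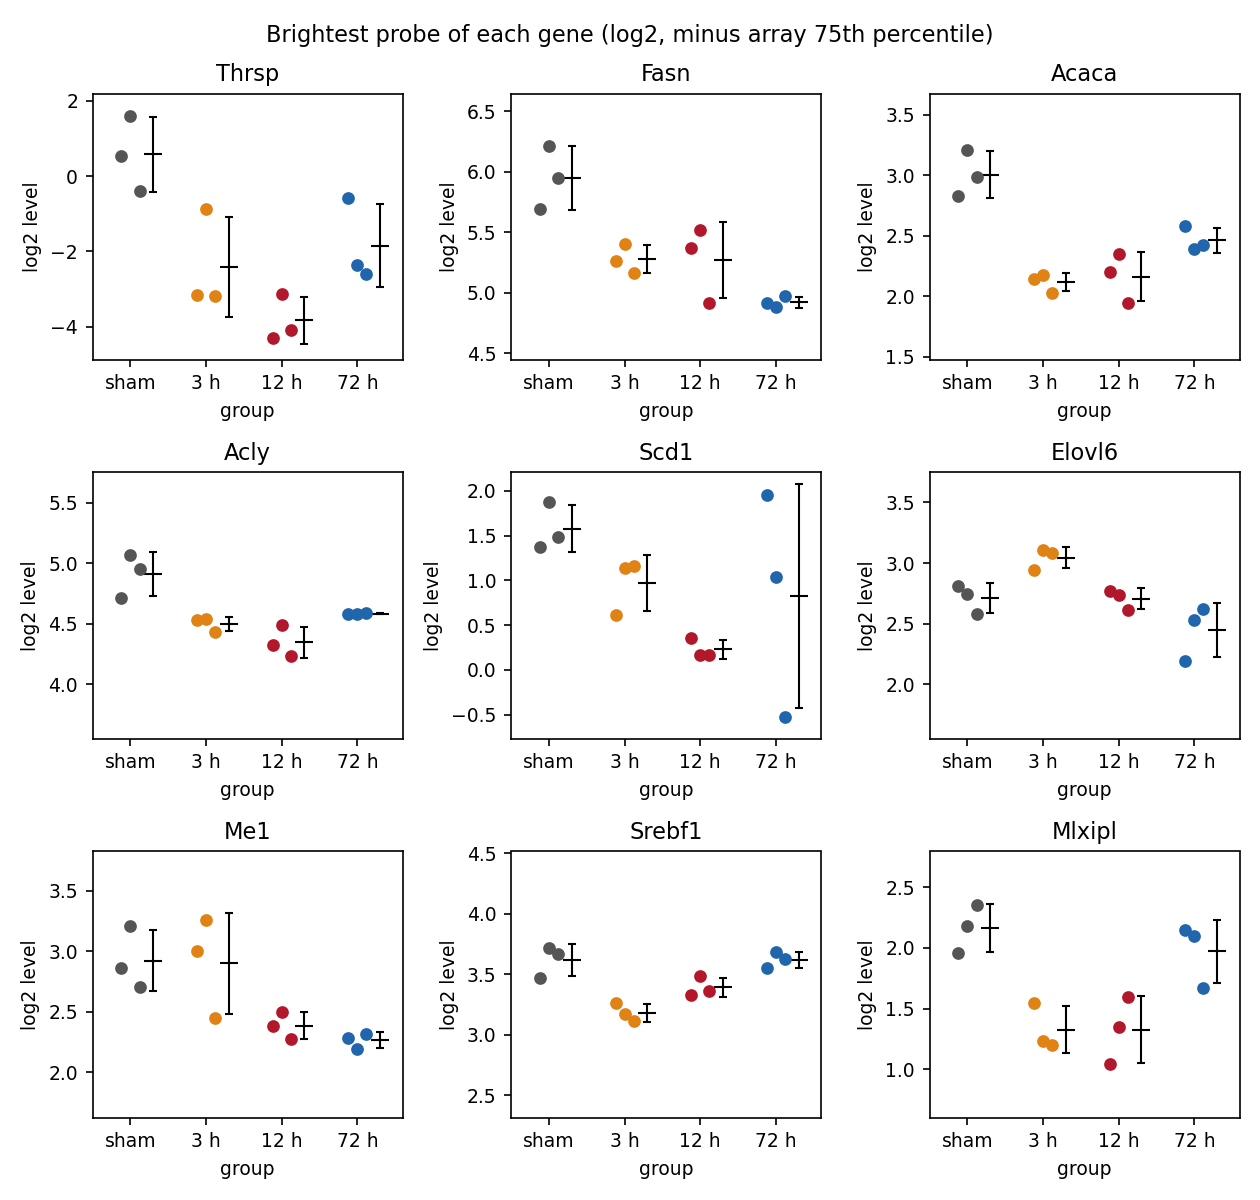
Log2 level (minus the array's 75th percentile) of the brightest probe of each of the 9 genes on 12 arrays; points are arrays in replicate order, bars the mean and SD of 3 arrays, and each panel has its own range. At 72 h the Srebf1 and Mlxipl arrays overlap sham, while the Fasn and Me1 arrays lie below every sham array.

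Counted together, 1 of 9 genes was called lower at 3 h (Thrsp) and 0 higher, where 4.31% of all genes above background on every array were called lower and 4.28% higher. Without the fold limit 6 of 9 fell, namely Thrsp, Fasn, Acaca, Acly, Srebf1 and Mlxipl, beside 13.7% of those genes, and 0 rose, beside 13.8%. In limma's fit of those 2 groups alone, Fasn (adjusted p = 0.0455), Acaca (0.0115) and Mlxipl (0.0221) passed. Thrsp (adjusted p = 0.0553), Acly (0.0885) and Srebf1 (0.0593) did not. All 3 h arrays lay below all sham arrays for 7 of 9, beside 24.5%, and above them for 1, beside 26.3%. The median difference of the 9 was -0.61, against 0.01 over those genes. At 72 h, 2 of 9 were called lower (Thrsp and Fasn), beside 3.99%, and 0 higher, beside 5.70%. With Acaca and Me1, 4 fell, beside 18.0%. In limma's fit of 72 h and sham alone, Fasn (adjusted p = 0.0122), Acaca (0.0497) and Me1 (0.0399) passed and Thrsp (0.0693) did not. For 5 genes all 72 h arrays lay below sham, beside 32.7%, and for 0 above, beside 18.3%. The median was -0.54 against -0.14. Both comparisons use the sham arrays of the contrast that chose the genes.

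The difference of 72 h from 3 h takes its means from no array of that contrast, but its spread is pooled over all 12 arrays. None of the 9 genes was called in it by limma, beside 5.93% called lower and 7.28% called higher. At an unadjusted limma p below 0.05 there were 5 genes, a count for which no share over all genes was taken, and no other tool was run. Elovl6 and Me1 were lower at 72 h, beside 28.8% of genes, and Srebf1 and Mlxipl higher, beside 16.7%. The groups did not overlap for 3 lower genes, beside 38.8%, and 4 higher ones, beside 21.9%. In a fit of those 2 groups alone Elovl6 (adjusted p = 0.0367) and Srebf1 (adjusted p = 0.0338) passed, and Me1 (adjusted p = 0.0704) and Mlxipl (adjusted p = 0.0502) did not. The adjusted p of the 4 differences ran from 0.144 to 0.675 with the slide as a block. At 12 h, by description, Thrsp and Scd1 lay more than 2-fold below sham, beside 5.94% of genes. Means of 9 of 9 genes were below sham, though that of Elovl6 differed by only -0.0048 and its arrays overlapped sham. For 7 genes the arrays did not overlap with sham, beside 29.5%, and the median was -0.68 against -0.06. Thrsp, whose 12 h level chose the genes, is in each of these counts.

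**Figure D4:**
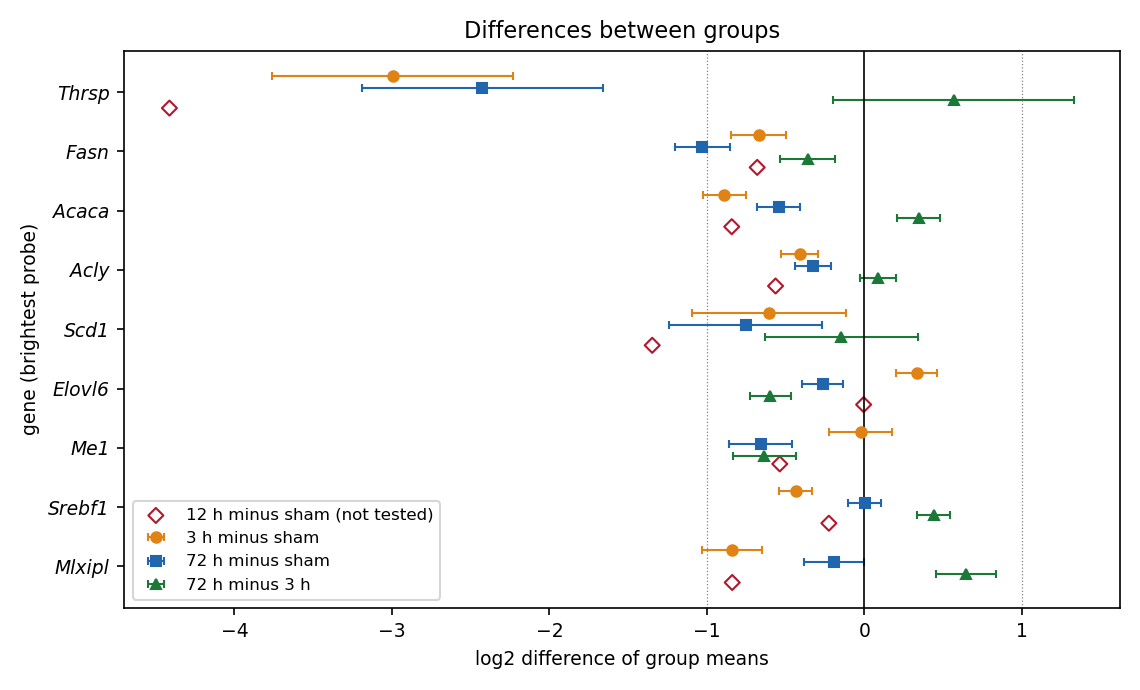
Log2 difference of group means for the brightest probe of each gene, with limma's SE as bars for the 3 tested comparisons and open diamonds for 12 h minus sham, which was not tested; dotted lines mark a 2-fold difference. Thrsp lies far to the left of the other genes in each comparison with sham.

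Neighbouring pathways were counted gene by gene, and a single call in a list of 20 genes is near the shares over all genes above background, 4.31% lower and 4.28% higher at 3 h. For counts at an unadjusted p no share over all genes was taken. Of 27 other fatty acid synthesis enzymes, Scd2 was called lower and the acyl-CoA synthetases Acsl4 (1.29) and Acsl3, at the fold limit, higher at 3 h, and Acacb lower and Acsl4 (1.01) higher at 72 h, with list medians of -0.08 and -0.29. From 3 h to 72 h, Scd2 was called higher and Acsl3 lower (-1.58). Acsl4 stayed called at 72 h with the slide as a block (adjusted p = 0.0416), and the calls of Acacb at 72 h and of Scd2 and Acsl3 from 3 h to 72 h were lost. Of 20 genes of SREBP, LXR and ChREBP control, none was called at 3 h (6 with unadjusted limma p below 0.05), and at 72 h the cholesterol exporters Abca1 (2.44) and Abcg1 (1.54) were called higher and the AMPK subunit Prkaa2 (-1.03) lower, with medians of -0.14 and -0.19. The calls of Abcg1 and Prkaa2 were lost with the slide as a block (adjusted p = 0.0660 and 0.281).

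Of 22 cholesterol genes, Stard4 was called lower at 3 h (-1.19) and Tm7sf2 at 72 h (-1.07), and from 3 h to 72 h Hsd17b7 was among those called lower (-1.31). Tm7sf2 was not called with the slide as a block (adjusted p = 0.144) and Hsd17b7 was (adjusted p = 0.0385). Of 20 triglyceride genes, Gpam (-1.25), the first acyltransferase, and the lipase Lipe (-1.23) were called lower and Gpat3 (1.35) higher at 3 h. None was called at 72 h by limma, where 12 had an unadjusted p below 0.05, again with no share over all genes taken.

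Fatty acid oxidation genes were called mainly lower at 72 h. Of the 23 genes 9 were called lower and 1 higher, beside 3.99% and 5.70% of genes, with a median of -0.92. Among them were Pdk4 (-2.12), the kinase that shuts pyruvate dehydrogenase, the carnitine carrier Slc25a20 (-1.37) and Cyp4a10, which was not well above background on any 72 h array and was at least 2.13-fold lower, and the lipase inhibitor Angptl4 was higher (3.55). At 3 h, Ppara (-1.43) and Pdk4 (-1.04) were called lower and Angptl4 (2.40) higher. With the slide as a block the count of 9 at 72 h became 1, Pdk4 (adjusted p = 0.0430), and Angptl4 stayed called.

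Some markers of other cell types and some clock genes also differed from sham in the same tissue. Of genes above background on every array, 4.31% were called lower and 4.28% higher at 3 h, and 3.99% and 5.70% at 72 h. That set holds 7 of the 12 neutrophil, 20 of the 20 epithelial and 16 of the 18 clock genes. A single call in a list of 20 genes is near those shares. Of 12 neutrophil markers 8 were called higher at 3 h and 8 at 72 h, S100a8, above background on 2 of 3 sham arrays, by 10.79 and 10.96. Their mean level relative to sham ran from 4.26 to 5.04 at 3 h and from 4.14 to 5.57 at 72 h. Of 20 epithelial markers, 1 was called higher at 3 h, Krt18 (1.17), and 4 were called lower at 72 h, led by the carbonic anhydrase Car4 (-3.67), which alone stayed called with the slide as a block (adjusted p = 0.0171). The 3 h arrays had an epithelial mean of 0.21 to 0.24, and the 72 h arrays one of -1.05 to -0.68. Of 18 clock genes 3 were called lower and 3 higher at each time, with Hlf (-1.81), Dbp (-1.66) and Per3 (-1.57) lowest at 3 h and the repressor Nfil3 highest (2.93). At 72 h, 6 neutrophil markers were called higher when the slide was a block, 3 clock genes were called higher, and each call of a lower clock gene was lost. The parts of the epithelial, neutrophil and clock changes in those of the 9 genes were not tested, and the hour of day at sampling is not given in the sources used here.

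**Figure D5:**
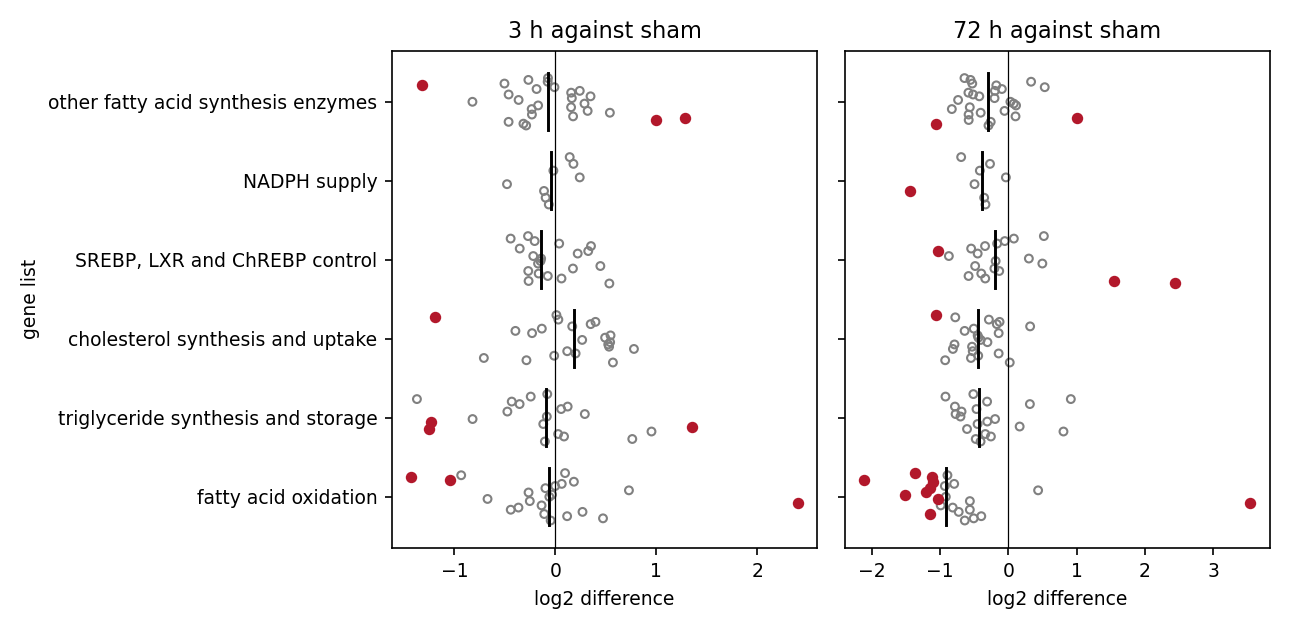
Log2 difference from sham of each gene in 6 lists at 3 h (left) and 72 h (right); red points are genes called by limma, open points the others, and vertical bars the list medians. The fatty acid oxidation list has its median at -0.92 at 72 h and at -0.06 at 3 h.

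The closest profiles to Thrsp were sought among 20766 genes whose brightest probe was well above background on all 12 arrays. Adipoq, Cfd and Plin1 were among the genes left out by that limit. Closeness was the root mean square difference over the 12 arrays after each gene was centred on its own mean. That measure counts the size of a profile as well as its shape. The nearest were an unnamed transcript on chromosome 5 (0.96), Vstm5 (0.98), AK083287 (0.98), Tmem35a (1.03) and the metalloprotease Adam33 (1.03), against a root mean square of 1.81 for the Thrsp profile itself. Vstm5 differed from sham by -2.57 at 3 h and Adam33 by -2.37, a description, since likeness to Thrsp picked them. Around Fasn the nearest were Mief2 (0.15), Faim2 (0.17) and Acy3 (0.18), against 0.41 for Fasn itself. These are descriptions over arrays that share scaling and slides.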

How the data were processed

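Cecum RNA of 12 mouse tissue samples, 3 in each of 4 groups, was hybridised to 12 Agilent SurePrint G3 Mouse GE v2 arrays. Per the file headers, the deposited scanner files hold processed signal intensity, background-subtracted by Feature Extraction. The series table deposited by the authors holds log2 values that the authors scaled to the 75th percentile, and its rows are centred on their medians. The signal was taken to log2 after leaving out control spots and outlier flags, spots of a probe were averaged, and each array's 75th percentile over its non-control probes was subtracted. Arrays give no read depth, so their number, 3 a group, limits the precision. Each p-value sets a difference of group means against a spread between arrays that limma pooled over the 4 groups.

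A gene was represented by its brightest probe over the 12 arrays, with array names updated through RefSeq symbols. limma 3.58.1 in R 4.3.3 fitted 4 group means to 56605 probes, with Benjamini-Hochberg adjustment over all of them, and the fit was tested on simulated data. Where a probe was not well above background on any array of a group, the fold is a bound, taken per array against the dimmest detected probe or the probe's own signal, whichever is higher. A call needed more than a 2-fold change together with an adjusted p under 0.05. The 9 genes, the gene lists and the named genes were chosen with earlier results of these data known. Named were the 9 genes and their relatives, up to 3 called genes in each direction for each list and comparison, some fat cell markers and the nearest profiles. Quantile normalization, percentiles over other probes or over spots, normexp with offset 50, the authors' table, an intensity filter, kept outliers, slide and replicate blocks, a trended robust prior, pairs of groups, probe means, no fold limit and leaving out each array were tried as alternatives. The percentile over spots was added after seeing the data.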

Additional observations from a re-analysis of the deposited data

Results flagged for a closer look

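For 4 of the 9 genes the effect at 72 h differed from the effect at 3 h, both taken against the same sham arrays, in limma's comparison of 72 h with 3 h. Of these, 2 were lower, beside 28.8% of genes above background on every array, and 2 higher, beside 16.7%. The count is thus near the shares over all genes and is no trait of these 9. The difference of effects was -0.60 for Elovl6 (adjusted p = 0.00709) and -0.64 for Me1 (adjusted p = 0.0342), where 3 of 3 arrays at 72 h lay below all 3 h arrays. It was 0.44 for Srebf1 (adjusted p = 0.0105) and 0.64 for Mlxipl (adjusted p = 0.0276), where 3 of 3 lay above. The other Mlxipl probes did not pass (adjusted p = 0.132 and 0.432). In limma's fit of the 2 groups alone, Me1 (adjusted p = 0.0704) and Mlxipl (adjusted p = 0.0502) did not pass either. Because all 72 h arrays lay on the slide that held no 3 h array, the slide and the time cannot be told apart beyond 1 shared 12 h array. With the slide as a block the differences were -0.45, -0.48, 0.48 and 0.24, with adjusted p from 0.144 to 0.675.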

How the results depend on the processing

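The count of genes called lower at 3 h was 1, and it was 2 with quantile normalization, with the percentile over probes detected on every array and with probe means (Acaca added in each), 0 with a fit of the 2 groups alone and 6 with no fold limit. Leaving out each array gave 0 to 1. At 72 h the count was 2, and it was 0 with quantile normalization and with the slide as a block, 1 with the percentile over probes detected on every array, normexp, the authors' table, a fit of the 2 groups alone and probe means, and 4 with no fold limit. Leaving out each array gave 0 to 2. From 3 h to 72 h the count was 0, also with each array left out (0 to 0), and 4 with no fold limit. The other alternatives left these counts within 1.5 times. Of 648 values of single genes under alternatives, 559 kept direction and side of the threshold, 11 stayed short of it with the other sign, 67 lost it, 11 passed it anew and 0 called values changed sign. Of 60 list counts, 47 moved by over 1.5 times in some setting.

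The 3 h fall of Fasn did not pass without sham replicate 2 or 3 or 3 h replicate 1 or 3 (adjusted p 0.0539 to 0.0895), and that of Srebf1 without sham replicate 2 or 3 h replicate 3 (0.0669 and 0.0590). That of Acly did not pass without sham replicate 2 or 3, any 3 h array or 72 h replicate 2 (0.0510 to 0.122). The 72 h fall of Thrsp was lost without sham replicate 1 or 2, 3 h replicate 1 or 3, any 12 h array or 72 h replicate 2 or 3 (0.0544 to 0.162), and that of Acaca without sham replicate 2 or 72 h replicate 2 or 3 (0.0576 to 0.0783). From 3 h to 72 h, Me1 did not pass without 3 h replicate 1 or 2 or any 72 h array (0.0677 to 0.118), nor Mlxipl without 3 h replicate 2 or 3 or 72 h replicate 1 or 2 (0.0694 to 0.0946). The causes were not tested.

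Replicate numbers are shared between groups. Same-numbered arrays deviated from their group means with correlations from -0.40 to 0.26 (median -0.02 over 18 pairs), so the numbers were not taken to pair samples. With the replicate block the counts were 1, 2 and 0.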
